A study of Saccharomyces cerevisiae with 4 samples.

Results

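The ECM33 family of Saccharomyces cerevisiae comprises 4 related genes, PST1 (YDR055W), ECM33 (YBR078W), SPS2 (YDR522C) and SPS22 (YCL048W). The members were taken by gene symbol from the annotation of a dedicated microarray of cell wall genes, which named all 4 of them among its 353 genes, and each was spotted 2 times. The spots of PST1, SPS2 and ECM33 follow each other in the array's numbering (33 to 38), and those of SPS22 are 501 and 502. PST1 and ECM33 form the pair known from vegetative growth, and SPS2 and SPS22 the pair known from sporulation.

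Total RNA came from BY4741 cells that lacked HOG1, the MAP kinase gene of the high osmolarity pathway, in both channels of every array. A culture in YEPD, a rich medium, at 24 °C was split, and Congo Red at 30 µg/ml was added to 1 part while the other was left untreated. Congo Red attaches to the chitin and glucan chains of the wall and so interferes with how the wall is put together. Cells of both parts were collected at 4 h, and their RNA was hybridised together on 4 arrays, with the treated RNA in channel 2 for arrays 1 and 3, and in channel 1 for arrays 2 and 4. Cells with HOG1 were not analysed here. The labels do not say if each array had its own culture, so a p-value here refers to the spread of these 4 arrays, and that spread may be technical.

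Proteins of this family carry a GPI anchor, a lipid that holds them at the plasma membrane and from which many are passed on to the cell wall. Ecm33 is needed for a normal wall during growth, and loss of it activates the cell integrity pathway, in which the kinase Slt2 acts on the transcription factor Rlm1. PST1 is a well-known target of that pathway and is named for a protein secreted by regenerating protoplasts. SPS2 and SPS22 are known as genes induced in the middle of sporulation, with overlapping roles in building the glucan layer of the spore wall. BY4741 is a haploid strain of the a mating type, which does not form spores.

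Each deposited value is the log2 ratio of the channels at 1 spot, so it gives a difference between treated and untreated RNA and no level of a transcript. The Congo Red RNA was taken as the numerator, which the labels do not state. That direction is called likely because genes known to answer to wall stress, PST1 among them, are then higher, so their direction is no independent finding. Arrays of opposite channel order had a mean correlation of r = 0.15 over all spots, and spots are not independent replicates. That is below the bound of 0.3 set on all spots, so whether all arrays had already been turned the same way was taken as unsettled. Over the 328 named genes valued on all arrays the mean was 0.40, with each pair of opposite order between 0.31 and 0.51, above that bound. Turning arrays 2 and 4 would make each of these correlations negative. Values are given as deposited, and for the members and their differences the mean with arrays 2 and 4 turned is given as well. Precision is limited by the number of arrays. An exact two-sided sign-flip permutation test over 4 arrays has 16 sign patterns, of which at least 2 are always as extreme as the data, so it cannot pass a threshold of 0.05. The array medians over all spots lay between -0.13 and 0.22.

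With the ratios as deposited, 3 of the 4 family members were higher after Congo Red and 0 were lower. SPS2 had the highest mean ratio (3.82-fold), followed by PST1 (3.13-fold) and SPS22 (1.54-fold), while the ratio of ECM33 did not pass the test (mean log2 ratio -0.27). In the same limma fit, 59 of 348 tested genes were higher at an adjusted p under 0.05, which is 17.0%, and 13 were lower, which is 3.74%. With arrays 2 and 4 turned, limma called 0 of the 4 members and 0 of the 348 genes at an adjusted p under 0.05. In that fit 33 genes had an unadjusted p under 0.05, against 113 with the ratios as deposited. RNA was taken from whole cultures, so a change in the share of cells that express a gene and a change in RNA per cell cannot be told apart.

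For PST1, the member known to answer to wall damage during growth, arrays 1 to 4 gave log2 ratios of 1.33, 1.62, 1.77 and 1.86. All 4 arrays lay above 0, and both channel orders were alike, with means of 1.55 (arrays 1 and 3) and 1.74 (arrays 2 and 4). Their mean was 1.64 ± 0.23 (SD, n = 4), a 3.13-fold rise with a 95% confidence interval from 2.47-fold to 3.95-fold (limma adjusted p = 0.00245). PST1 ranked 10 of 348 by mean ratio, and its rank among the 328 genes valued on all arrays lay between 9 and 24. The call held when any array was left out (limma adjusted p from 0.00793 to 0.0205). With arrays 2 and 4 turned the mean log2 ratio was -0.095, and PST1 was not called (limma adjusted p = 0.98).

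ECM33, whose product is required for wall integrity in growing cells, had ratios of both signs. Arrays 1 to 4 gave log2 ratios of 0.11, -1.04, 0.22 and -0.36. The values lay slightly above 0 on arrays 1 and 3 and below 0 on arrays 2 and 4, so the sign followed the channel order. The mean was -0.27 ± 0.58 (SD, n = 4), with a 95% confidence interval from -0.88 to 0.35 on the log2 scale (limma adjusted p = 0.499). With arrays 2 and 4 turned the mean was 0.44, of the opposite sign, and did not pass either (limma adjusted p = 0.651). As a fold of the untreated RNA, that interval runs from 0.542 to 1.27. Without array 2 the mean was -0.01.

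For SPS2, known from the spore wall, arrays 1 to 4 gave log2 ratios of 1.65, 0.97, 2.45 and 2.67. All lay above 0, with arrays 3 and 4 high and array 2 low, so that the ratio ran from 1.96-fold to 6.36-fold between arrays. The mean was 1.93 ± 0.78 (SD, n = 4), a 3.82-fold rise with a 95% confidence interval from 2.20-fold to 6.64-fold (limma adjusted p = 0.0134). The SD was 2.75 times the median SD of all tested genes, which was 0.28. SPS2 ranked 8 of 348 by mean ratio. Its call was lost without array 3 (limma adjusted p = 0.0568). When genes with only 2 remaining values were tested as well, it was lost without array 1 (0.0567), 3 (0.0698) or 4 (0.0502), all limma adjusted p. With arrays 2 and 4 turned the mean was 0.11 (limma adjusted p = 0.98).

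SPS22, the relative with which SPS2 shares its role in spores, gave log2 ratios of 0.81, 0.44, 0.88 and 0.36 across arrays 1 to 4. Arrays 1 and 3 were high and arrays 2 and 4 low, with means of 0.85 and 0.40, and all were above 0. The mean was 0.62 ± 0.26 (SD, n = 4), a 1.54-fold rise with a 95% confidence interval from 1.20-fold to 1.98-fold (limma adjusted p = 0.0348). The call was lost when any array was left out (limma adjusted p from 0.0587 to 0.122). It was also lost when arrays 1 with 2 and 3 with 4 were averaged as if they were technical swaps (limma adjusted p = 0.114). In that setting the log2 confidence intervals of all 4 members were equally wide. The p-value there did not rest on the spread of SPS22 itself. With arrays 2 and 4 turned the mean was 0.22 and the call was lost (limma adjusted p = 0.974). SPS22 ranked 66 of 348. A positive ratio on every measured array, as PST1, SPS2 and SPS22 had, was seen for 95 of the 348 genes, which is 27.3%.

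**Figure D1:**
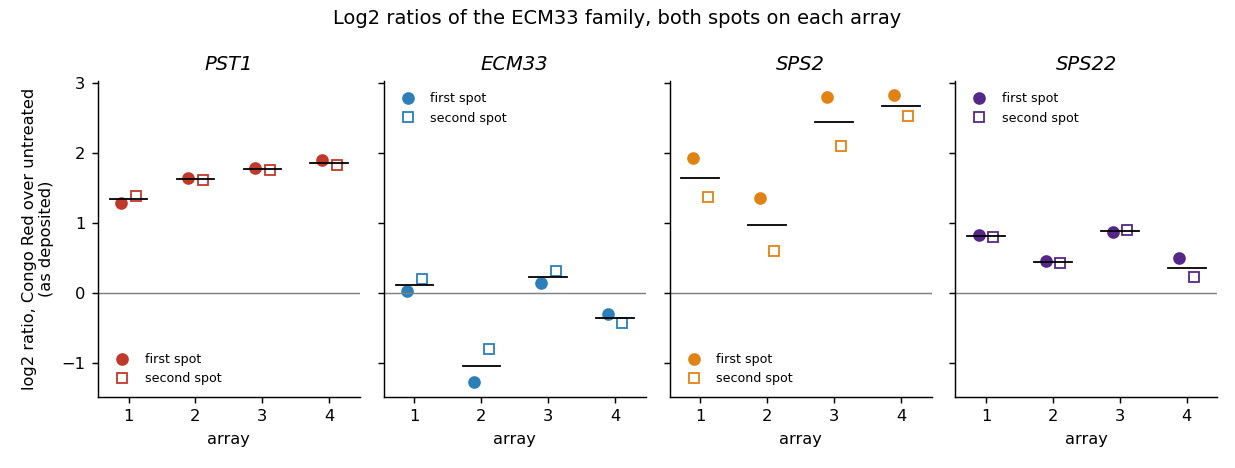
Log2 ratios of Congo Red over untreated RNA (vertical axis, as deposited) on each of the 4 arrays (horizontal axis) for the first spot (filled circles) and second spot (open squares) of each family member, with their mean as a black line. PST1, SPS2 and SPS22 lie above 0 on every array, and ECM33 lies near 0 on arrays 1 and 3 and below it on arrays 2 and 4.

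**Figure D2:**
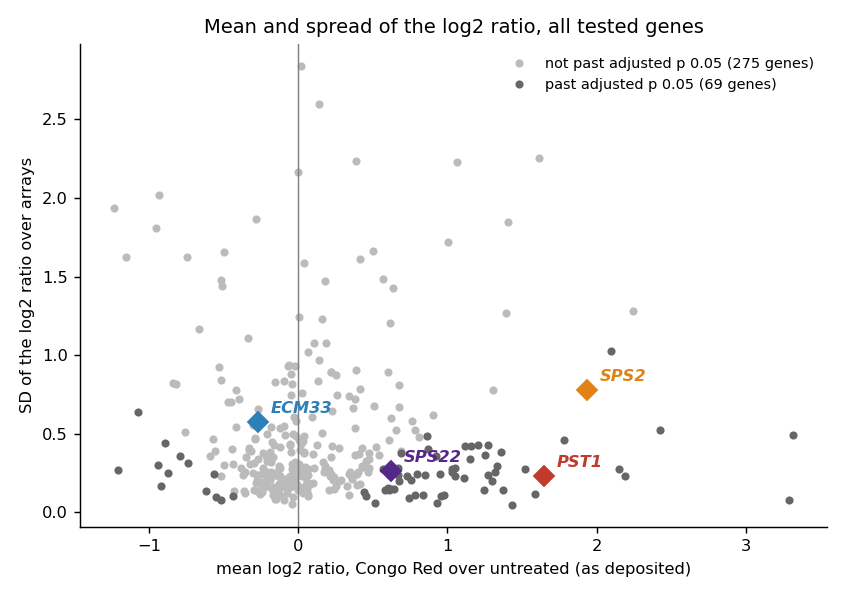
Mean log2 ratio (horizontal axis) and its SD over arrays (vertical axis) for the 348 tested genes, with family members as coloured diamonds and other genes past the adjusted p threshold in dark grey. PST1 joins a high mean (1.64) to a low SD (0.23), while SPS2 has a higher mean (1.93) and a higher SD (0.78).

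Duplicate spots of the same gene showed how far each ratio was reproduced within an array. The first spot of SPS2 was at 1.93, 1.35, 2.79 and 2.82 (log2) across arrays 1 to 4, and the second at 1.37, 0.60, 2.10 and 2.52. The first was higher on every array, by between 0.30 and 0.75. The mean difference between the SPS2 spots was 0.58 ± 0.20 (SD, n = 4), and 26 of 348 genes had a larger mean absolute difference, against a median of 0.09. Either spot alone placed SPS2 above 0, at a mean log2 ratio of 2.22 from the first (limma adjusted p = 0.0069) and 1.65 from the second (limma adjusted p = 0.0228).

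The duplicate spots of the other members lay closer together. Those of PST1 differed by at most 0.10 on any array, with mean log2 ratios of 1.65 and 1.64. Those of SPS22 differed by at most 0.26, on array 4, and the call for SPS22 was lost with the second spots alone (mean log2 ratio 0.59, limma adjusted p = 0.0532). Those of ECM33 differed by up to 0.48, on array 2, where its ratio was lowest. Each ECM33 spot showed the same division by channel order, with -1.28 and -0.80 on array 2 against 0.02 and 0.20 on array 1. The specificity of the probes for single members of the family is not stated by the labels, and cross-hybridisation between members was not tested.

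**Figure D3:**
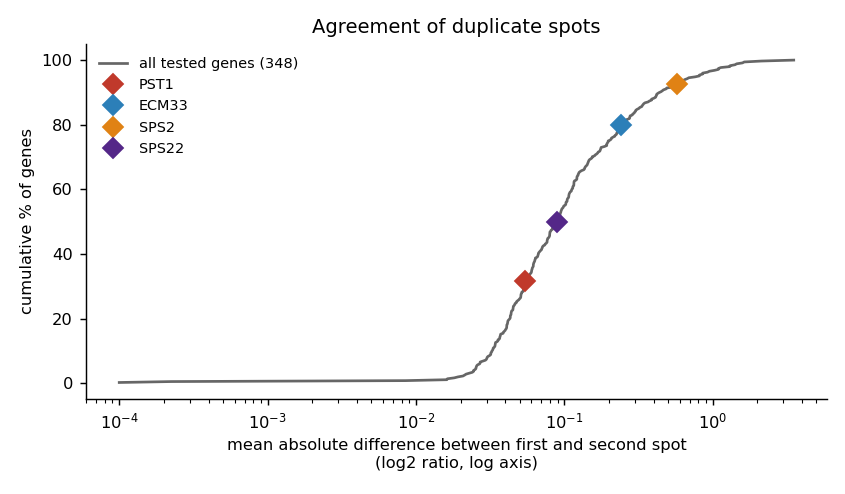
Cumulative percentage of the 348 tested genes (vertical axis) by the mean absolute difference between first and second spot over the arrays (horizontal axis, log2 ratio on a log axis). PST1 and SPS22 lie in the lower and middle part of the curve, and SPS2, at 0.58, lies near its upper end.

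The sporulation pair was set against the vegetative pair within each array. The mean log2 ratio of PST1 and ECM33 was 0.72, 0.29, 1.00 and 0.75 on arrays 1 to 4, and that of SPS2 and SPS22 was 1.23, 0.71, 1.66 and 1.51. The sporulation pair was higher on 4 of 4 arrays, by 0.51, 0.42, 0.67 and 0.77. The mean difference was 0.59 ± 0.16 (SD, n = 4), or 1.51-fold, and 2 of the 16 patterns of the exact two-sided sign-flip permutation test were as extreme, the fewest that 4 arrays allow. It was 0.80 with the first spots and 0.39 with the second spots of each gene, and it did not hold with arrays 2 and 4 turned (-0.0021). As deposited, PST1 alone lay above the mean of the sporulation pair on every array, at 1.33, 1.62, 1.77 and 1.86. ECM33 lay below that mean on every array, so the higher sporulation pair depends on averaging ECM33 with PST1.

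By their means, the members of each pair differed from each other by more than the pairs did, although the 2 kinds of difference were not tested against each other. They are also unlike measures, because the pair difference averages 2 genes on each side and the others set single genes against each other. Within the vegetative pair, PST1 exceeded ECM33 by 1.23, 2.66, 1.54 and 2.23 on arrays 1 to 4, a mean of 1.91 ± 0.65 (SD, n = 4) on the log2 scale. Within the sporulation pair, SPS2 exceeded SPS22 by 0.83, 0.53, 1.57 and 2.31, a mean of 1.31 ± 0.79. In both pairs 1 member was the higher on each array as deposited. With arrays 2 and 4 turned, both mean differences changed sign, to -0.53 for PST1 and ECM33 and -0.11 for SPS2 and SPS22. The largest of the 6 differences between single members was that between SPS2 and ECM33, at 2.20 ± 0.62, which runs across the pairs.

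The order of the ratios was SPS2, PST1, SPS22 and ECM33 by mean. SPS2 and PST1, next to each other in that order, did not differ beyond their spread. SPS2 was the higher of them on 3 of 4 arrays and lower on array 2, with a mean difference of 0.29 ± 0.66 that ranged from -0.65 to 0.81 over the arrays (exact two-sided sign-flip permutation p = 0.375). PST1 exceeded SPS22 on 4 of 4 arrays, by 1.02 ± 0.42, and SPS22 exceeded ECM33 on 4 of 4 arrays, by 0.89 ± 0.39. Of the 6 differences between members, the 5 other than that of SPS2 and PST1 had the same sign on every array and 2 of 16 patterns as extreme in the exact test, with p = 0.15 after exact tests were adjusted over the 6 by Benjamini-Hochberg. These single differences, apart from that of SPS2 and SPS22, were chosen after the values were seen.

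**Figure D4:**
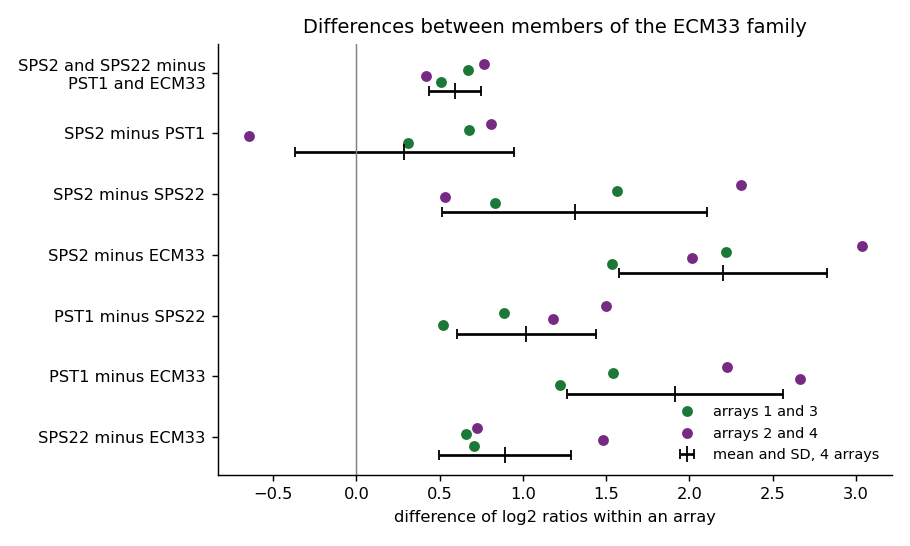
Differences of log2 ratios within an array (horizontal axis) between the sporulation and vegetative pairs and between single members, with a point for each array coloured by channel order and the mean with its SD over 4 arrays as a black bar. Only the difference of SPS2 and PST1 has an array (array 2, at -0.65) below 0.

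The ratios were also compared between channel orders. Over the 328 genes valued on all arrays, which are not independent replicates, the correlation was 0.70 and 0.77 between arrays of equal order and 0.31 to 0.51 between arrays of unequal order. ECM33 had a mean log2 ratio of 0.17 on arrays 1 and 3 and -0.70 on arrays 2 and 4, and its channel order coefficient was 0.44 (limma adjusted p = 0.134, unadjusted p = 0.025). The coefficient was 0.22 for SPS22 (adjusted p = 0.243), 0.11 for SPS2 (adjusted p = 0.814) and -0.09 for PST1 (adjusted p = 0.701). It passed for 0 of the members, and for 23 of 348 genes, which is 6.61%. With that term in the model, the treatment passed for SPS22 (limma adjusted p = 0.00688), SPS2 (0.00472) and PST1 (0.000625) and not for ECM33 (0.205), beside 121 of 348 genes, or 34.8%, of which 87 were higher, or 25.0% of all tested.

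For each member, the genes with the most similar log2 ratios over the 4 arrays were found by the root mean square difference among the 328 genes valued on all arrays. The closest to PST1 was SLT2, the kinase gene of the cell integrity pathway, at 0.14, followed by SED1, a structural wall protein gene, at 0.22 and CHA1, a serine and threonine deaminase gene, at 0.27. Arrays 1 to 4 gave SLT2 log2 ratios of 1.42, 1.66, 1.65 and 1.64, with array 1 the lowest, as for PST1. Such a likeness is built into a choice of genes by closeness. The median distance of the other 327 genes from PST1 was 1.70.

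SPS2 had no gene as close. PRM5, a membrane protein gene, lay at 0.60, and KTR2, a mannosyltransferase gene, and PST1 both at 0.64, with a median of 2.05 over all others. SPS2 was in turn 21st in distance from PST1, and SPS22 was 57th from SPS2. The closest to SPS22 were VTH1, which encodes a relative of a vacuolar sorting receptor, at 0.12, YNR065C at 0.16 and AFB1 at 0.18. The closest to ECM33 were SRT1, a prenyltransferase gene, at 0.11, the centrin gene CDC31 at 0.13 and MNN9, a gene for mannan synthesis, at 0.17. SRT1, CDC31 and MNN9 were each lower on arrays 2 and 4 than on arrays 1 and 3, as ECM33 was. They did not pass the treatment test (limma adjusted p from 0.398 to 0.547). Both likenesses to ECM33 follow from picking these genes by closeness over the same arrays, and are no separate finding. SPS22 and ECM33 lie nearer to the middle of all genes, with median distances of 0.78 and 0.66.

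The lists of other genes that follow leave out the family members, and they overlap. Their counts are to be read against the 17.0% of all tested genes that were higher and the 3.74% that were lower, and with arrays 2 and 4 turned they would be 0, as for all genes. Of 21 tested genes of the cell wall integrity response, the group to which PST1 belongs, 17 were higher and 0 lower. Their median log2 ratio was 1.32, against 0.02 over all tested genes. The direction called likely was the one in which genes known to answer to wall stress are higher. This list was also chosen with earlier results of these data known, so its direction is no independent finding. The largest rises among the genes that passed were those of the mannoprotein gene CWP1 (log2 3.32 ± 0.49), the methyltransferase gene CRG1 (3.29 ± 0.08), the yapsin protease gene YPS3 (2.43 ± 0.52) and PRM5 (2.19 ± 0.23). KDX1, a gene of this list named after its values were seen, had values on arrays 1 and 3 only, at 4.26 and 4.79, and was not tested. PST1 had a lower ratio than 5 of the 21, SPS2 than 4 and SPS22 than 19, and 0 of the 21 had a ratio below that of ECM33.

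Among 40 other tested genes for proteins with a GPI anchor, 11 were higher and 3 lower (27.5% and 7.50%), with a median of 0.27, and 8 of the 11 higher genes are also in the integrity response list. CWP1 and YPS3 were the 2 genes of these 40 above PST1 and SPS2. The next were SED1 (1.52 ± 0.27) and NCW2 (1.37 ± 0.14), both for structural wall proteins. The largest falls among the genes that passed were those of FIT2, a mannoprotein gene of iron uptake (-1.21 ± 0.27), and TIR3, a mannoprotein gene of the cold-shock type (-0.89 ± 0.44). The call for TIR3 was lost without array 1, 3 or 4 (limma adjusted p from 0.0563 to 0.114). The mean of ECM33 was above those of 4 of the 40. The other 26 genes did not pass.

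Of 9 other tested genes of the spore wall, 2 were higher and 0 lower (22.2% and 0%, the first near the 17.0% of all tested genes), with a median of 0.50. They were GSC2, a glucan synthase gene (1.78 ± 0.46), which also belongs to the integrity response, and GAS2, a glucan-remodelling gene (0.67 ± 0.28), which is known from spores. The call for GAS2 was lost without array 1, 3 or 4 (limma adjusted p from 0.0867 to 0.117). SPS2 had a higher mean ratio than all 9 of these genes, and SPS22 a higher one than 6. The other 7 did not pass. Among them GAS4, SPS100 and SMK1, named after their values were seen, were above 0 on arrays 1 and 3 and below 0 on arrays 2 and 4. SMK1 lay at 0.004, -0.31, 0.17 and -0.06 on arrays 1 to 4. DIT2 (-0.28, 0.01, 0.07 and 0.305) and SPR1 (-0.36, -0.01, 1.16 and -1.065) did not divide in this way. GAS4, a relative of GAS2, was at 1.72, -0.93, 2.14 and -0.93 (log2) across arrays 1 to 4. SPS100, a spore wall protein gene, was at 2.06, -0.53, 1.13 and -0.20. SPS1, a kinase gene of sporulation and the chromosomal neighbour of SPS2, was at 1.27, -2.01 and -0.77 on arrays 1 to 3, with no value on array 4, and did not pass (limma adjusted p = 0.693). The positive ratios of SPS2 and SPS22 on all 4 arrays were shared by GSC2, GAS2 and CHS3, a chitin synthase gene that did not pass (0.76 ± 0.58).

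Of 13 regulators of meiosis and sporulation that were looked for, such as IME1 and NDT80, 0 were named on the array, so the ratios of SPS2 and SPS22 could not be set beside those of their known regulators. The mating type of the cells could not be checked either, because the array gives ratios and not levels. The other chromosomal neighbours of the 4 members were not named on the array.

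**Figure D5:**
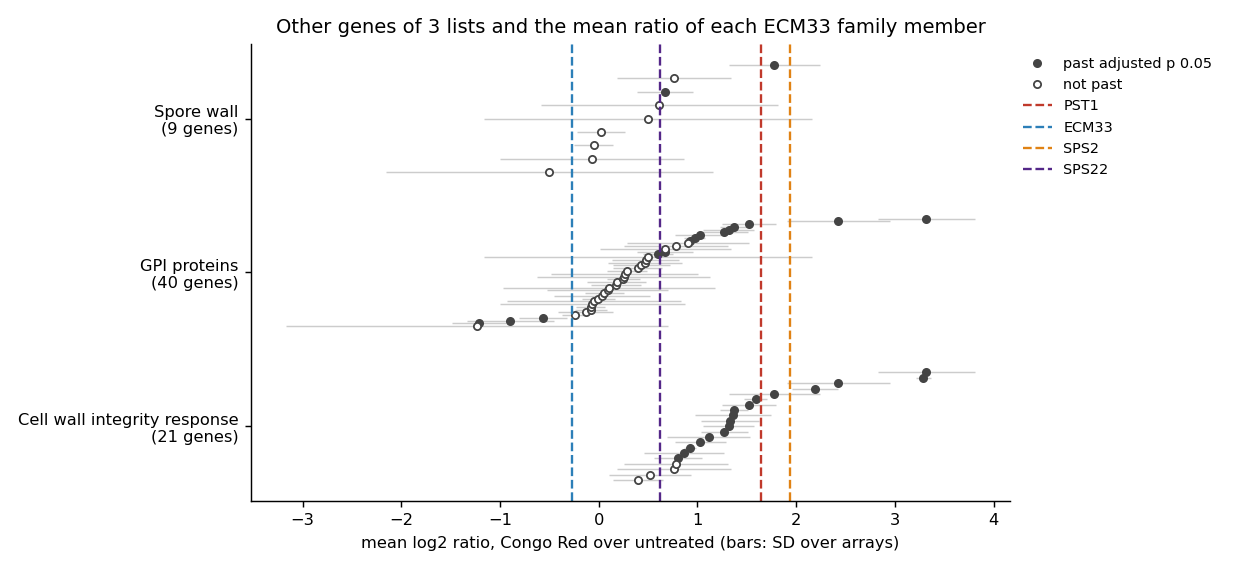
Mean log2 ratio (horizontal axis) with its SD over arrays (grey bars) of the other genes in 3 lists, ordered by ratio within each list, filled where past the adjusted p threshold, and the mean ratios of the family members as dashed lines. SPS2 (1.93) lies to the right of all 9 spore wall genes, and ECM33 (-0.27) lies to the left of all 21 integrity response genes.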

How the data were processed

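The authors deposited a log2 ratio per spot. Base 2 was inferred: on arrays 1 to 3, 36 to 58 values fell within 0.00011 of log2 of a quotient of 2 different integers no larger than 10, against at most 9 for other bases. Background correction and normalization were not given in the sources used here. Intensities were not analysed here. Of 896 spots, 724 had 1 gene in the platform's annotation, and all 353 genes matched the R64 gene table. Spots of a gene were averaged per array. The 348 genes valued on at least 3 arrays (328 on all 4) were fitted with limma 3.58.1 (lmFit, eBayes) under R 4.3.3 and tested against 0. Benjamini-Hochberg adjustment ran over all 348, with a threshold of 0.05. The limma step was first run on simulated data.

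The members and lists were chosen with earlier results of these data known. Named genes were the members, the 3 closest genes to each, up to 4 rises and 2 falls per list, meiosis regulators and chromosomal neighbours. Alternatives covered centring, scaling, turning, channel order, averaged array pairs, array weights, robust variance, missing values, single spots, a 2-fold threshold and each array left out. Figures used matplotlib 3.10.9.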

Additional observations from a re-analysis of the deposited data

Results flagged for a closer look

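The 4 members, their differences and the other named genes gave 29 results with 4 values each, and in 1 of them an array lay far from the other 3. SLT2, the gene closest to PST1, had a log2 ratio of 1.42 on array 1, against 1.64 to 1.66 on the other arrays. Chance alone marks about 1 in 20 such groups. None of the 4 family members was marked in this way.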

How the results depend on the processing

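With ratios of arrays 2 and 4 turned, PST1 had a mean log2 ratio of -0.095, ECM33 of 0.44, SPS2 of 0.11 and SPS22 of 0.22, none of the 4 was called, and the difference of the pairs was -0.0021, that of SPS2 and SPS22 -0.11 and that of PST1 and ECM33 -0.53. In all other alternatives the 4 members and these differences kept their sign, and PST1 stayed past the threshold. SPS2 missed it without array 3, and SPS22 without any array, with averaged array pairs (0.62) and with second spots alone (0.59). With averaged array pairs the confidence intervals of the 4 members were equally wide, so that loss did not rest on the spread of SPS22. Over arrays left out, PST1 ranged from 1.57 to 1.75, SPS2 from 1.69 to 2.25, SPS22 from 0.54 to 0.71 and ECM33 from -0.43 to -0.01, the members called from 1 to 2 and all genes called from 38 to 52. When genes with at least 2 remaining values were also tested, an alternative chosen after seeing the data, SPS2 missed the threshold without array 1 (log2 2.03, limma adjusted p = 0.0567), 3 (1.76, 0.0698) or 4 (1.69, 0.0502). SPS22 missed it without array 1 (0.56), 2 (0.68), 3 (0.54) or 4 (0.71), the genes called were 37, 55, 28 and 40 in that order, and 1 member was called without array 1, 3 or 4. The count of 72 called genes became 121 with a channel order term, 0 with arrays 2 and 4 turned and 32 with a 2-fold threshold, and the 3 called members became 0 with arrays 2 and 4 turned. With arrays centred on their medians and scaled, 63 genes were higher and 30 lower, against 59 and 13. The difference of the pairs was 0.80 with first and 0.39 with second spots. The cause of these changes was not tested. Each ratio already sets treated against untreated RNA on 1 array, and the array numbers pair no further samples. Without intensities, spots near the background could not be set apart. HOG1, which the cells of both channels lacked, gave log2 ratios of 1.43, -1.73, -0.23 and 1.245 on arrays 1 to 4 (SD 1.47). It was named after its values were seen. Ratios of that size on single arrays thus occurred for a gene that was absent, with both signs.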
